A study of Mus musculus with 2 samples.

Results

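The genes described here are 9 feedback inhibitors of mitogen-activated protein (MAP) kinase signalling, Dusp1, Dusp4, Dusp5, Dusp6, Spry1, Spry2, Spry4, Spred1 and Spred2, taken by symbol from a table of 17245 genes. All 9 were in the table. RNA had been sequenced from mouse pancreatic islets, the clusters of endocrine cells in which insulin-secreting β-cells predominate, isolated with collagenase and kept in culture medium. The labels name 2 genotypes, KO and WT, with 1 library each, and the series describes KO as a β-cell knockout of cGAS, the cytosolic DNA sensor. Neither the driver of recombination and the deleted exon nor strain, sex, age and any pooling of animals could be read from the labels, and the other cell types of a β-cell knockout islet keep the gene. With 1 library per genotype no difference has a replicate check and no p-value is given.

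MAP kinase cascades carry signals from growth factor receptors through RAS, RAF and MEK to ERK, and parallel modules lead to JNK and p38. Active ERK induces genes whose products shut the cascade down again. Dual-specificity phosphatases of the Dusp family remove the activating phosphates from the MAP kinases themselves, whereas Sprouty (Spry) and Spred proteins act upstream, at the level of receptors, RAS and RAF. In islets this cascade responds to glucose and to growth factors, and transcripts of several inhibitors, Dusp1 above all, appear within minutes of stimulation.

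Values are FPKM, a read density scaled to kilobases of gene and to 1000000 reads or fragments, as deposited. Library totals recovered from the values were 14537660 reads in the library labelled KO and 19097001 reads for WT. Cgas had 0.521 FPKM in the library labelled KO against 0.205 FPKM in WT islets, a ratio of 2.55 (exact 95% interval 1.35 to 4.98). It rests on at least 31 and 16 reads, and both values lie below 1 FPKM, the floor used for genes below. The targeted transcript was therefore not lower under the KO label, the first library is called the library labelled KO, and each direction below holds between the libraries as labelled. A gene total does not show whether the reads came from the deleted part or from other cells. All 11 β-cell markers examined were above 1 FPKM in at least 1 library, and summed to 437373 FPKM in the library labelled KO against 396767 FPKM in WT islets. Ins1 and Ins2 made up most of both sums. Ins1 had 237131 FPKM in the library labelled KO against 113793 FPKM in WT islets, and Ins2 182558 against 250577 FPKM. Of the 11 markers, 8 were lower in the library labelled KO and 3 higher. In whole islets, fewer cells of a type and less RNA per cell cannot be told apart.

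All 9 inhibitors reached 1 FPKM in at least 1 library. On the log2(FPKM + 1) scale, where a difference of 1 marks 2-fold, 1 of the 9 was at least 2-fold higher in the library labelled KO (Spry1) and none was at least 2-fold lower. Among all 12428 genes at that floor, 6.98% were higher and 3.88% lower by that limit, so 1 of 9 is little different from the background. Of all genes past 2-fold, 64.3% were higher in the library labelled KO, against 46.5% with both libraries scaled to a sum of 1000000 and 43.7% with equal sums without the 20 highest genes. On the same scale 5 of the 9 inhibitors lay above 0 and 4 below, beside 54.4% of all genes at that floor above 0. The inhibitors had a median of 0.48 and a range of -0.70 to 1.10. The median of all genes was 0.077, with quartiles of -0.35 and 0.51. The split of the members around 0 was near that of all genes. They did not move as a block, and each of the 3 families held members on both sides of 0. Of the 4 below 0, however, only Dusp5 had a counting interval below 1. Spred2, the lower Spred member, had no interval and reached the floor in WT only.

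**Figure D1:**
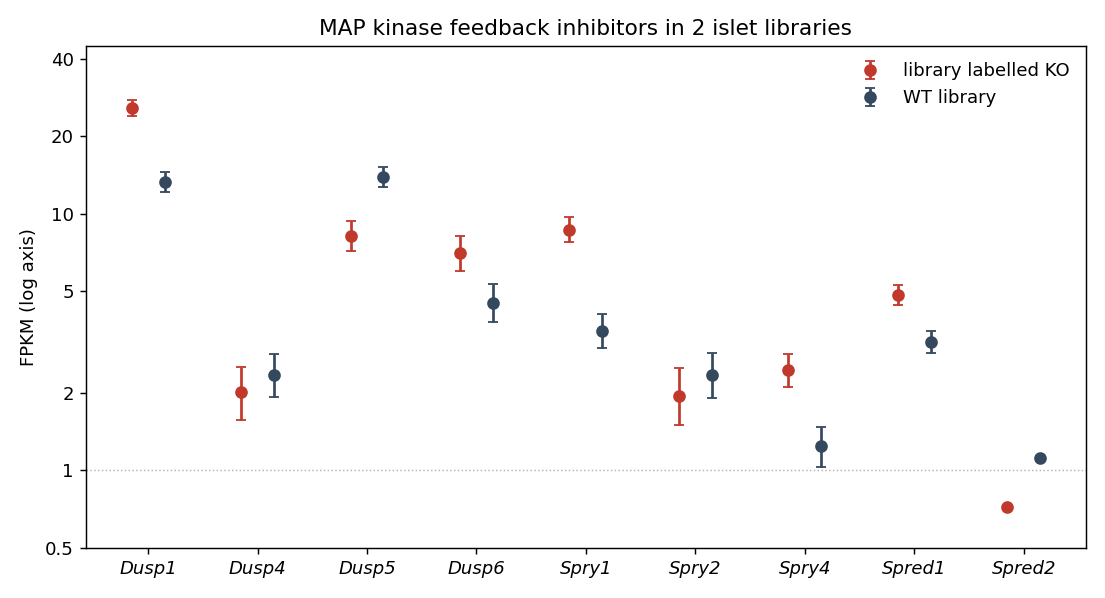
Level of each inhibitor in FPKM, on a log axis, under the KO label (red, left of each pair) and the WT label (dark, right of each pair). Points are the deposited values, bars are exact 95% Poisson intervals for counting error only, Spred2 has no interval, and the dotted line marks 1 FPKM; Dusp1 was at 25.9 against 13.3 FPKM and Dusp5 at 8.19 against 13.9 FPKM.

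Spry1, Spry4, Dusp1, Dusp6 and Spred1 were the higher members and their counting intervals lay above 1. Dusp5 was lower, with an interval below 1. For Dusp4 and Spry2 the interval held 1, and a difference was not detectable with these read numbers. For Spred2, also lower in the library labelled KO, whole reads were not recovered and no interval could be given. All intervals cover counting error only, and duplicate reads from PCR could not be set apart.

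**Figure D2:**
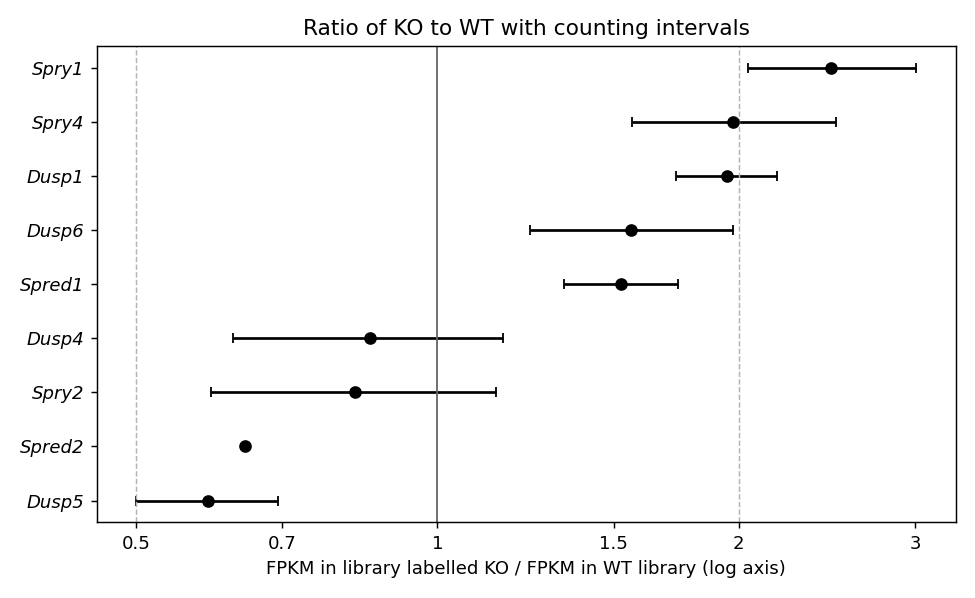
Ratio of FPKM in the library labelled KO to FPKM in the WT library for the 9 inhibitors, on a log axis, with exact 95% Clopper-Pearson intervals (counting error only; Spred2 has none). The solid line marks equality and the dashed lines 2-fold; Spry1 at 2.48 is the single member whose whole interval lies beyond 2-fold.

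The Dusp members are typical MAP kinase phosphatases. Dusp1 (MKP-1), a nuclear phosphatase of p38, JNK and ERK and itself an immediate-early gene, had 25.9 FPKM in the library labelled KO against 13.3 FPKM in WT islets. The ratio was 1.95 (1.73 to 2.19), on at least 730 and 493 reads, and its log2 difference of 0.91 exceeded that of 90.8% of expressed genes. Dusp5, a nuclear phosphatase selective for ERK, had 8.19 FPKM in the library labelled KO against 13.9 FPKM in WT islets, a ratio of 0.590 (0.500 to 0.694). With the trend on GC content and transcript length removed, the log2 difference of Dusp5 was -1.08 and passed 2-fold, against -0.70 as deposited, and that of Dusp1 was 0.54. Dusp6 (MKP-3), the cytoplasmic phosphatase of ERK, had 7.02 FPKM in the library labelled KO against 4.50 FPKM in WT islets, a ratio of 1.56 (1.24 to 1.97). Dusp4 (MKP-2), a nuclear phosphatase of ERK and JNK, had 2.01 FPKM in the library labelled KO against 2.35 FPKM in WT islets, a ratio of 0.856 (0.625 to 1.16).

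Dusp1 and Dusp5 are both nuclear phosphatases, yet they differed in opposite directions. Their ratio within a library does not depend on how the libraries are scaled, but a trend on GC content and length can still enter it. Dusp1 stood at 3.16 times Dusp5 in the library labelled KO and at 0.958 times in WT islets, a 3.30-fold change of the ratio (exact conditional 95% interval 2.70 to 4.04). The ratio of Dusp5 to Dusp6, the nuclear and the cytoplasmic ERK phosphatase, was 1.17 in the library labelled KO and 3.09 in WT islets, a change to 0.378 times (0.284 to 0.504). Dusp1 over Dusp6, both higher, was 3.68 in the library labelled KO and 2.96 in WT islets, and the interval of that change held 1 (0.958 to 1.62). Dusp1 over Dusp4 was 12.8 in the library labelled KO and 5.65 in WT islets, a 2.27-fold change (1.63 to 3.18). With the GC and length trend removed, the log2 differences of Dusp1, Dusp4, Dusp5 and Dusp6 were 0.54, -0.48, -1.08 and 0.60. Of the 10 pairs within the Dusp, Spry and Spred families, 9 had an interval and in 7 it did not hold 1. These pairs share genes, and the intervals cover counting error only. Pairs of other genes were not counted, so that number has no background and is no trait of these families. Of the FPKM summed over all 9 inhibitors, Dusp1 held 41.9% in the library labelled KO and 29.3% in WT islets, and Dusp5 held 13.3% and 30.6% in the same order. The sum itself was 61.7 FPKM in the library labelled KO against 45.4 FPKM in WT islets.

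The promoters of Dusp1, Dusp5 and Spry1 are shown because these genes had the widest differences of the 9 on the log2(FPKM + 1) scale as deposited, with Dusp5 in the opposite direction; by the plain ratio Spry4 also differed more than Dusp1. RefSeq promoter sequences on GRCm38.p6 were found for 7 of the 9 members, all but Dusp4 and Spry4. Each run below is the 250 bases before the annotated start, 5′ to 3′ on the strand of the gene. Dusp1 is read on the minus strand of chr17:26508473-26508722, Dusp5 on the plus strand of chr19:53528895-53529144 and Spry1 on the plus strand of chr3:37639697-37639946. Capitals mark cAMP response elements (TGACGTCA), the partial site TGACG, which also occurs on its own, and the CArG box bound by serum response factor, on either strand.
Dusp1: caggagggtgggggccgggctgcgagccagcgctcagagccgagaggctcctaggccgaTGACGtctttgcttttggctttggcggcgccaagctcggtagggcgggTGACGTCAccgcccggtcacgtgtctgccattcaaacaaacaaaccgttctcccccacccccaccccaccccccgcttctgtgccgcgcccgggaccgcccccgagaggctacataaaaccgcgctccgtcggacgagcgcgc
Dusp5: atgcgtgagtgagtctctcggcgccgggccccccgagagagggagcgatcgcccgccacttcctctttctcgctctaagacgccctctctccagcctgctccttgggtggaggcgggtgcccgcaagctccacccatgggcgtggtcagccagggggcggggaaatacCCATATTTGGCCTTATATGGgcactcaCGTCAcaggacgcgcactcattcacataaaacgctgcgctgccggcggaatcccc
Spry1: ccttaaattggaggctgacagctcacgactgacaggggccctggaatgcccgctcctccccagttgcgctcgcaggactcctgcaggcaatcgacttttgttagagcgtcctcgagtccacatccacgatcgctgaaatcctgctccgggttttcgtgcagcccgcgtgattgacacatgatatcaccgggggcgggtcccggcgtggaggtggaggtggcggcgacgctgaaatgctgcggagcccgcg

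The Dusp1 window held a full cAMP response element from 143 to 136 bases before the start, which contains the partial site on both strands, and a separate partial site from 191 to 187 bases before it. A full element was present in 1.55% of all 32851 promoters of that length in the table, and the partial site in 17.8%. Dusp5 held 2 adjacent CArG boxes, from 82 to 73 and from 72 to 63 bases before the start, and a partial site from 55 to 51; 1.47% of all promoters held a CArG box. None of these motifs was in the Spry1 window. Among the other windows, Spred2 held a partial site. The AP-1 site (TGANTCA, in 6.75% of promoters), the C/EBP site (TTGCNNAA, 9.56%), the ETS site (CCGGAAG, 6.91%) and the TATA box (TATAAA, 12.4%) were in none of the 7 windows. The GC box (GGGCGG, not in capitals) was in 5 of 7, in Dusp1, Dusp5, Spry1, Spred1 and Spred2, against 32.7% of all promoters; in Dusp1 it lies on both sides of the cAMP response element without overlapping it. The 7 windows were 56.0 to 70.8% G and C, against a median of 52.4%. A match is a stretch of letters and shows no binding.

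Of the Sprouty genes, which block signals from receptor tyrosine kinases and whose founding member was found in Drosophila, Spry1 differed most. It had 8.67 FPKM in the library labelled KO against 3.50 FPKM in WT islets, a ratio of 2.48 (2.04 to 3.01) on at least 309 and 164 reads. Its log2 difference was 1.10, and fell short of 2-fold, at 0.75, once the trend on GC and length was taken out. It was also short of 2-fold with equal sums without the 20 highest genes, at 0.97, and with a pseudocount of 5 FPKM, at 0.68. Spry4 was the next, at 2.45 FPKM in the library labelled KO against 1.24 FPKM in WT islets, a ratio of 1.98 (1.56 to 2.50). Spry2, by contrast, had 1.95 FPKM in the library labelled KO against 2.36 FPKM in WT islets, a ratio of 0.828 (0.594 to 1.15).

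The balance of the Sprouty genes was thus unequal between the libraries in the values as deposited. With the GC and length trend removed, the log2 differences of Spry1, Spry2 and Spry4 were 0.75, -0.096 and 0.69. Spry1 stood at 4.44 times Spry2 in the library labelled KO and at 1.48 times in WT islets, a 2.99-fold change of the ratio (2.04 to 4.40). Spry2 over Spry4 was 0.796 in the library labelled KO and 1.90 in WT islets, a change to 0.419 times (0.278 to 0.629). Spry1 over Spry4 was 3.53 in the library labelled KO and 2.82 in WT islets, and the interval of that change held 1 (0.921 to 1.70). The 3 Sprouty genes summed to 13.1 FPKM in the library labelled KO against 7.10 FPKM in WT islets, 21.2% and 15.6% of the sum over the 9 inhibitors.

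Spred proteins bring the RAS-inactivating protein neurofibromin to the membrane. Spred1 had 4.83 FPKM in the library labelled KO against 3.17 FPKM in WT islets, a ratio of 1.52 (1.34 to 1.74) on at least 498 and 429 reads. With the GC and length trend removed its log2 difference was 0.98, against 0.48 as deposited; its transcript, the longest of the 9 at 6016 nucleotides, is also the lowest in GC, at 41.2%. Spred2 was the least abundant member in both libraries, at 0.722 FPKM in the library labelled KO against 1.12 FPKM in WT islets, a log2 difference of -0.30. Only the WT value brought it over the floor. Spred1 stood at 6.70 times Spred2 in the library labelled KO and at 2.82 times in WT islets.

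Markers of several other cell types, in some of which Sprouty and Spred genes are also expressed, differed between the same libraries, whereas none of 6 α-cell markers was past 2-fold, with sums of 27828 FPKM in the library labelled KO against 28155 FPKM in WT islets and a median of 0.084. All 12 endothelial markers were expressed and 7 were at least 2-fold higher, and the list summed to 782 FPKM in the library labelled KO against 326 FPKM in WT islets. Fibroblast, stellate-cell and pericyte markers were at least 2-fold higher for 3 of 11, with sums of 232.0 FPKM in the library labelled KO against 122 FPKM in WT islets. Macrophage and dendritic-cell markers were higher for 5 of 11 expressed of 12 listed, with sums of 326 FPKM in the library labelled KO against 140.0 FPKM in WT islets. None of these markers was at 0 in either library. Acinar markers were at least 2-fold lower for all 12 expressed of 14 listed, with sums of 133 FPKM in the library labelled KO against 2063 FPKM in WT islets, and Ptf1a was listed at 0 in the library labelled KO. The median of the 11 β-cell markers was -0.65, with 4 at least 2-fold lower and 1 higher. None of 4 Schwann-cell markers was past 2-fold, with a median of 0.47 and all above 0. Of 9 lymphocyte markers only 1 was expressed, Cd79a. It was at least 2-fold lower, at 2.68 FPKM in the library labelled KO against 7.11 FPKM in WT islets. Duct markers summed to 249 FPKM in each library, and 1 of 5 markers of δ-, PP- and ε-cells passed 2-fold upward, their median being 0.87. The part of these cells in the values of the 9 inhibitors was not tested.

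Ordered by FPKM, which is per length of gene, the library labelled KO ran Dusp1, Spry1, Dusp5, Dusp6, Spred1, Spry4, Dusp4, Spry2 and Spred2. The WT library ran Dusp5, Dusp1, Dusp6, Spry1, Spred1, Spry2, Dusp4, Spry4 and Spred2. In the library labelled KO the counting intervals of these neighbours overlapped for Spry1 and Dusp5, Dusp5 and Dusp6, Spry4 and Dusp4, and Dusp4 and Spry2. In the WT library they overlapped for Dusp5 and Dusp1, Dusp6 and Spry1, Spry1 and Spred1, and Spry2 and Dusp4. Dusp1 was therefore alone at the top in the library labelled KO and shared the top with Dusp5 in the WT library. The level of Dusp1 exceeded that of 83.1% of expressed genes in the library labelled KO and 67.9% in WT islets, and that of Dusp5 52.2% and 69.3% in the same order.

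**Figure D3:**
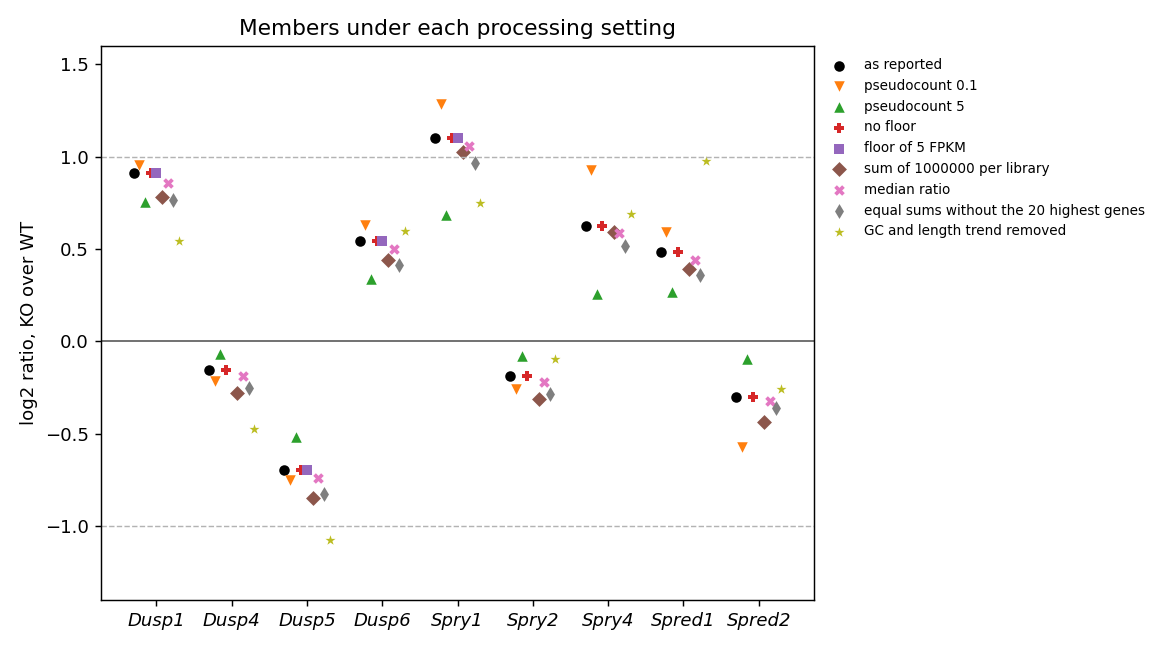
Log2 difference of each inhibitor, library labelled KO over WT library, as reported and under 8 other processing settings; symbols mark the settings, dashed lines 2-fold. No member changes sign with the GC and length trend removed. The other scalings shift all members slightly down, too little to change a sign, and pseudocounts and floors cannot change one. Spry1 falls short of 2-fold under 3 settings and Dusp5 passes it, at -1.08, under 1.

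On GRCm38.p6 (RefSeq), Dusp1 spans chr17:26505591-26508472, Dusp4 chr8:34807610-34819894, Dusp5 chr19:53529145-53541809 and Dusp6 chr10:99263231-99267489. Spry1 spans chr3:37639947-37644599, Spry2 chr14:105891947-105896819 and Spry4 chr18:38586247-38601347, and Spred1 and Spred2 span chr2:117121071-117182279 and chr11:19924442-20024026. In GENCODE M21, on the same assembly, the longest coding transcripts of the Dusp members have 3 or 4 exons, those of the Sprouty members 2 and those of the Spred members 7. The transcript AC137853.2, on the strand opposite Dusp5, shares 547 of its exonic bases, and Gm42922, opposite Spry1, shares 710. Whether reads were counted by strand is not given, so reads of Dusp5 and Spry1 cannot be told apart from those of these neighbours. A Dusp1 exon shares 11 bases with Ergic1 on the other strand, and the exons of the other 6 members overlap no annotated gene.

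The 3′ untranslated regions of all 9 held the pentamer ATTTA, the core of AU-rich elements found in many short-lived mRNAs. Dusp1 had 4 copies in 690 bases, or 5.80 per kilobase, the densest of the 9. The other 8 ranged from 0.841 per kilobase in Dusp6 to 2.77 in Spred1, and the median of the 9 was 1.91. Over 11619 expressed coding genes with at least 100 bases of 3′ untranslated region the median was 1.33 per kilobase, and 71.0% had at least 1 copy. Dusp5 and Dusp6 had 1 copy each, at 0.902 and 0.841 per kilobase. Whether this measure relates to the differences between the libraries was not tested.

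The other genes of the pathway were compared by role, from 10 lists of 167 genes of which 138 were expressed. Of these, 13 were at least 2-fold higher in the library labelled KO and 4 at least 2-fold lower, 9.42% and 2.90%, beside 6.98% and 3.88% of all genes. With a pseudocount of 5 FPKM, 5 were past 2-fold upward and 0 downward. The immediate-early genes held 8 of the 13. None of the other negative regulators of the cascade was past 2-fold. In the remaining 6 typical MAP kinase phosphatases, Dusp7, Dusp8, Dusp10 and Dusp16 were expressed and all lay within 2-fold, with a median of -0.21. The cytoplasmic ERK phosphatase Dusp7 had 6.83 FPKM in the library labelled KO against 8.70 FPKM in WT islets, and Dusp10, a phosphatase of JNK and p38, had 2.27 and 1.77 FPKM in the same order.

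**Figure D4:**
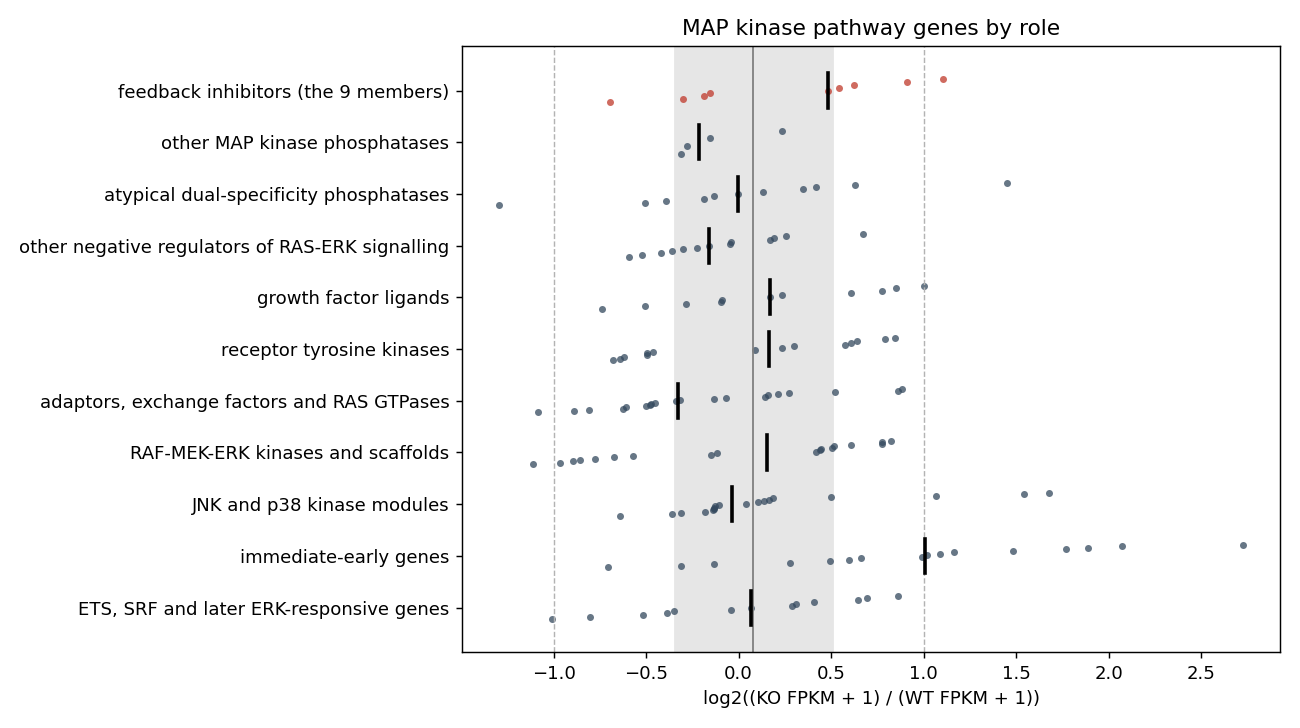
Log2 differences of expressed genes, library labelled KO over WT library, for the 9 inhibitors (red) and 10 lists of MAP kinase pathway genes (dark). Black bars are medians, the grey band and line the quartiles and median of all 12428 expressed genes, and dashed lines mark 2-fold; the immediate-early genes, with a median of 1.01, lie furthest to the right.

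Among 11 atypical dual-specificity phosphatases, most of which are not dedicated to MAP kinases, the median was -0.0029. Dusp15 was at least 2-fold higher, at 2.87 FPKM in the library labelled KO against 0.413 FPKM in WT islets. Dusp18 was at least 2-fold lower, at 4.17 FPKM in the library labelled KO against 11.7 FPKM in WT islets. The 13 other negative regulators of RAS and ERK had a median of -0.16. Their widest members were Spred3, the third Spred gene, with a log2 difference of 0.67, the ubiquitin ligase Cbl at -0.59 and the RAS GTPase-activating protein Rasa1 at -0.52. Like Spred1, Spred3 was higher in the library labelled KO, at 6.34 FPKM against 3.61 FPKM in the WT library.

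Upstream of the inhibitors, 1 of 11 growth factor ligands was at least 2-fold higher, Pdgfa, at 9.43 FPKM in the library labelled KO against 4.20 FPKM in WT islets. Its log2 difference of 1.00 lay at the limit and fell short of it under all 3 other scalings. The median of the ligands was 0.17. None of 14 receptor tyrosine kinases was past 2-fold, with a median of 0.16, Pdgfrb, the receptor of pericytes, at 0.85 and the stem cell factor receptor Kit at -0.68. Adaptors, exchange factors and RAS GTPases had a median of -0.33 over 20 genes. Ptpn11, the phosphatase SHP2 that relays receptor signals to RAS, had 20.4 FPKM in the library labelled KO against 44.4 FPKM in WT islets, at least 2-fold lower. The RAS-related GTPase Rras and the cAMP-activated exchange factor Rapgef3 lay at 0.86 and 0.88.

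The kinases that the Dusp proteins act on did not move as 1 group. Over 18 kinases and scaffolds of the RAF-MEK-ERK module the median was 0.15, with 9 above and 9 below 0. That median is unstable, and was -0.26 with sums of 1000000 and -0.24 once the trend on GC and length was taken out. The ERK-pathway kinase Braf had 6.06 FPKM in the library labelled KO against 12.8 FPKM in WT islets, within 2-fold on the log2 scale at -0.97. The scaffold Shoc2 was at least 2-fold lower, at 5.65 FPKM in the library labelled KO against 13.4 FPKM in WT islets. The count of lower genes in this module was 0 with that trend taken out or with a pseudocount of 5 FPKM, 2 with the median ratio, 3 with a pseudocount of 0.1 or without the 20 highest genes, and 4 with sums of 1000000. Of 18 genes of the JNK and p38 modules, 3 were at least 2-fold higher, all of them p38 isoforms. The fourth and most abundant isoform, Mapk14 (p38α), named after its values were seen, had 32.3 FPKM in the library labelled KO against 30.0 FPKM in WT islets, a log2 difference of 0.10. Mapk11 (p38β) had 10.1 FPKM in the library labelled KO against 2.46 FPKM in WT islets, a ratio of 4.10 (3.32 to 5.10). Mapk12 (p38γ) and Mapk13 (p38δ) had log2 differences of 1.54 and 1.07. The count was 2 with sums of 1000000, without the 20 highest genes and with the GC trend taken out, and 1 with a pseudocount of 5 FPKM.

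Downstream, 8 of 16 expressed immediate-early genes passed the 2-fold limit upward, beside 6.98% of all genes, and none downward. The median was 1.01. Fosb and Atf3, both among the 8, reached the floor only in the library labelled KO. The count was 6 with a floor of 5 FPKM and 4 with a pseudocount of 5 FPKM. Beside Fos, Fosb, Jun and Egr1 these were Ier2, Ier3, Atf3 and Nr4a1, named after their values were seen. With the GC and length trend removed, 4 were past the limit and the median was 0.66. Dusp1, which is induced with them, differed less than the leading members. Egr1, a zinc-finger factor, had 17.0 FPKM in the library labelled KO against 3.27 FPKM in WT islets, a ratio of 5.18 (4.41 to 6.10). Fos stood at 1.65 times Dusp1 in the library labelled KO and at 0.420 times in WT islets, a 3.93-fold change of the ratio (2.98 to 5.22).

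Etv5 is an ETS factor that, like Dusp6, Spry and Spred genes, is a common readout of ERK activity after growth factor signals. It was at least 2-fold lower, at 2.64 FPKM in the library labelled KO against 6.32 FPKM in WT islets, a ratio of 0.418 (0.353 to 0.493). Ccnd1, the D-type cyclin induced by ERK, had 38.3 FPKM in the library labelled KO against 67.7 FPKM in WT islets, a log2 difference of -0.81. Plaur, the urokinase receptor, was the widest on the other side at 0.86. Over the 13 expressed ETS, SRF and later ERK-responsive genes the median was 0.068, with 1 at least 2-fold lower and none higher.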

How the data were processed

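RNA of hand-picked islets from 1 KO and 1 WT sample was sequenced after library preparation with a SMARTER kit, per the labels' protocols. The authors deposited 1 table of FPKM values with 1 column per library, on mm10 (GRCm38) per the submitters' processing notes; for aligner, counter, annotation and strand, nothing was given in the sources used here. Values were used unscaled. Differences are log2((KO + 1)/(WT + 1)), which understates low genes, for genes that reached 1 FPKM in either library, and 2-fold on that scale was the limit. Library totals were scanned for values at which FPKM give whole reads over a whole length of 60 to 30000 nucleotides; this held for 17178 of 17245 genes (99.6%), with a tolerance of 1e-05 of a read plus 1e-09 per read, against 1.20% of 1000 shuffled pairs. Intervals use the smallest such reads, so they can be too wide (exact Clopper-Pearson and conditional odds ratio, SciPy 1.17.1). The search was tested on simulated data. Alternatives changed the pseudocount, floor, scaling, or removed a lowess trend (statsmodels 0.14.6, fraction 0.3) on GC content and length for 12206 of 12428 genes (98.2%).

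Members and lists were chosen with earlier results of these data known. In each pathway list up to 4 expressed genes with the widest differences could be named; genes named otherwise are called so in the text, and Dusp7, Dusp8, Dusp10 and Dusp16 are all the expressed genes of their list. Of the 40 genes that the rule takes, 13 share exonic bases with another annotated gene, among them Ccnd1, Pdgfa and Jun, so their reads are less certain. Proteins were not analysed here, and 1 gene taken by the rule is not reported.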

Additional observations from a re-analysis of the deposited data

How the results depend on the processing

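No paired analysis was possible because each genotype had 1 library, and no library could be left out. No inhibitor changed sign with the GC and length trend removed, or under the other scalings. Those scalings all lower the library labelled KO against WT, by a factor of 1.04 for the median ratio and 1.11 without the 20 highest genes. Shifts of that size and direction could not turn a lower member, nor Spred1, the smallest of the higher members at 0.48. A change of pseudocount or floor cannot alter a sign either, so only removal of the trend tests it. The single inhibitor at least 2-fold higher, Spry1, gave a count of 1 under the other alternatives, and of 0 with a pseudocount of 5, with equal sums without the 20 highest genes and after removal of the GC and length trend; in the last case 1 inhibitor, Dusp5, was at least 2-fold lower. The median of the inhibitors was 0.59 and 0.26 with pseudocounts of 0.1 and 5, 0.73 with a floor of 5 FPKM, which keeps 4 of them, and 0.36 with equal sums without the 20 highest genes. Of the pathway genes, 5 were higher and 0 lower with a pseudocount of 5, 8 were higher with the trend removed, 8 were lower with a pseudocount of 0.1 and with sums of 1000000, and 7 were lower with equal sums without the 20 highest genes, against 13 higher and 4 lower as reported. Those scalings moved the median of all genes by -0.12 (sums of 1000000) and -0.14 (without the 20 highest genes). The cause of these shifts was not tested. Depth limits Dusp4 and Spry2, with at least 71 and 63 reads in the library labelled KO.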
